A study of Ostreococcus tauri with 84 samples.

Results

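The marine picoalga Ostreococcus tauri, strain RCC4221, was compared between constant light (LL) following Long Day and Long Day itself (LD) at the 2 times of day when LD cultures stand in the dark or have just left it, ZT20 and ZT0. ZT is Zeitgeber time, in hours after the lights come on. The comparison used 10 of the 84 RNA libraries of the series, chosen by their labels: 4 from LL, numbered 4 and 5 at each time point, and 6 from LD, numbered 1 to 3 at each time point. In LD the light was on for 16 h and off for 8 h of each day, so ZT20 fell 4 h into the night, and the ZT0 samples were taken immediately after lights-on. Cultures of both regimes were kept in the same kind of photochemostat, a culture vessel with continuous dilution, and samples were taken every 4 h. LD samples came from 3 consecutive days, and LL samples from 2 further days after a day of acclimation that was not sampled. In LL the light was held at its maximum, whereas in LD it rose and fell as over a solar day, and fresh medium was added only in the light. Light at night, its intensity, the added medium and the later days of culture therefore changed together between LD and LL and cannot be told apart here. The sources do not say that samples of a group came from separate cultures, so p-values measure the spread between these samples, taken on different days.

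Transcript levels of photosynthesis genes in green algae rise in the light and fall at night, and part of this daily course is driven by a circadian clock that keeps running in constant conditions. In O. tauri the core of the clock is a feedback loop between 2 genes, TOC1, which codes for a pseudo-response regulator, and CCA1, which codes for a protein of the Myb class. The time when the cells would be dark under LD is called the subjective night, and levels in LL at those times show what light leaves of the night state. Each level is an average over all cells of a culture, so more cells with a transcript and more transcript per cell cannot be told apart.

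Levels were deposited as FPKM (fragments per kilobase of exon, scaled to the number of mapped reads). From the steps between the lowest values, the LD libraries rested on about 510000 to 7830000 reads and the LL libraries on 2080000 to 10120000 reads. These are estimates of the reads behind the values. The paper states a single approximate number of reads generated per sample, which is larger than most of them. LD number 3 at ZT0 was the shallowest, with 699 genes listed at 0, against 99 to 699 over the LD and 94 to 353 over the LL libraries, and LL number 4 at ZT0 held 2080000 reads. In LD number 3 at ZT0, 147 genes were listed at 0 that had at least 10 FPKM in numbers 1 and 2, so a 0 there can be a failed estimate, and for such genes the value of each library is given in place of a mean.

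Light during the subjective night went with higher transcript levels of the photosynthetic apparatus and lower levels of nitrogen uptake and ribosome assembly genes. Of 7447 genes tested, 1925 (25.8%) differed between LL and LD in the mean of ZT20 and ZT0, with 1012 higher in LL (13.6%) and 913 lower (12.3%). The test was limma on FPKM plus 1 on the log2 scale, with a Benjamini-Hochberg adjusted p under 0.05 as the threshold. The median of all genes was -0.01 on the log2 scale. A fold of at least 2 on this scale was reached by 657 of the higher and 390 of the lower genes, and a fold of at least 8 by 51 and 12. All LL libraries lay above all LD libraries at both times in 690 of the higher genes, and below them in 742 of the lower genes, where 848 (11.4%) and 939 (12.6%) of all genes tested showed such a separation. The number of calls depended on single LL libraries, being 1096 without LL number 4 at ZT20, 1177 without LL number 5 at ZT0 and 1225 without LL number 5 at ZT20. Leaving out the shallow LD number 3 at ZT0 gave 2668 calls.

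Chlorophyll a/b-binding proteins, which gather light for the photosystems, held the largest rises. All 24 genes of the light-harvesting list had a positive log2 change, from 0.23 to 6.56 with a median of 3.37, and 20 were called higher. The gene with the largest rise, ostta05g03830, had 17.4, 42.5 and 28.4 FPKM at ZT20 and 17.9, 6.42 and 17.4 FPKM at ZT0 in LD. The LL libraries had 1917 and 1964 FPKM at ZT20 and 1324 and 2461 FPKM at ZT0. Its log2 change was 6.56 ± 0.34 (SE, limma adjusted p = 3.0e-06). Every LL library stood far above every LD library at both times. The more abundant ostta07g02530 had 76.04, 127 and 189 FPKM at ZT20 and 47.3, 24.97 and 86.9 FPKM at ZT0 in LD. Libraries of LL held 5804 and 6119.9 FPKM at ZT20 and 5351 and 7051 FPKM at ZT0. This difference (log2 change 6.30 ± 0.35 SE, limma adjusted p = 4.5e-06) was close to it. A further gene, ostta16g00450, showed 9370.3 and 8821 FPKM at ZT20 and 7674 and 10833 FPKM at ZT0 in LL, against 138, 161 and 252 FPKM at ZT20 and 95.2, 54.3 and 125 FPKM at ZT0 in LD. Its change was 6.19 ± 0.27 (SE, limma adjusted p = 1.5e-06), again without overlap. Among the other 5 light-harvesting genes with the largest rises, ostta03g04550, ostta03g04540, ostta01g04940, ostta14g00065 and ostta03g04920, log2 changes ran from 4.68 to 5.97. ostta14g00065 differed from these in its LD course, being lower at ZT20 (11.6, 16.6 and 5.78 FPKM) than at ZT0 (42.03, 39.7 and 33.7 FPKM). Summed over the list, the level was 3973 to 5960 FPKM in the LD libraries and 42382 to 59542 FPKM in the LL libraries. The sum does not depend on how reads were shared between close copies of this gene family, while the level of a single copy can.

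Genes of the reaction centres were higher in LL as well. Of 12 photosystem II genes 10 were called higher (median log2 change 2.52), and of 15 genes of photosystem I and electron transport 14 were (median 2.06), with none lower in either list. PsbO (ostta14g00150), which stabilises the manganese cluster that splits water, had 216, 229 and 139 FPKM at ZT20 and 144, 108 and 127 FPKM at ZT0 in LD. Under LL it had 2378 and 2540.0 FPKM at ZT20 and 2224 and 2763 FPKM at ZT0. The log2 change of this gene was 3.99 ± 0.19 (SE, limma adjusted p = 2.1e-06). PsbP (ostta14g02630), another protein of the oxygen-evolving complex, had 292, 351 and 278 FPKM at ZT20 and 75.9, 70.4 and 69.6 FPKM at ZT0 in LD. Values in LL were 2002 and 2435 FPKM at ZT20 and 1836 and 2230.0 FPKM at ZT0. Its LD level at ZT0 lay well below that at ZT20 while the LL levels were alike, and its rise was smaller at ZT20 (2.85 ± 0.22 SE, limma adjusted p = 0.00017) than at ZT0 (4.80 ± 0.22 SE, limma adjusted p = 5.7e-06), with a difference of -1.95 (limma adjusted p = 0.024). This difference between times, like all others, was not called without LL number 4 at ZT0 or without LL number 4 at ZT20. PsbQ, PsbX and PsbR, further small subunits of photosystem II, rose by 2.78 (limma adjusted p = 0.00017), 2.55 (limma adjusted p = 3.0e-05) and 2.50 (limma adjusted p = 7.8e-05) on the log2 scale. PsbM (ostta12g00420) had 774 and 771 FPKM at ZT20 and 559 and 923 FPKM at ZT0 in LL, against 71.8, 117 and 78.8 FPKM at ZT20 and 44.1, 28.4 and 0 FPKM at ZT0 in LD. With this 0 included its fitted change was 4.58 ± 0.90 (SE, limma adjusted p = 0.0059) and, without the shallow libraries LD number 3 and LL number 4 at ZT0, 3.90 (limma adjusted p = 8.6e-06).

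In photosystem I, PsaF (ostta04g01790), a subunit on the side where electrons arrive, had 174, 269 and 246 FPKM at ZT20 and 119, 99.8 and 132 FPKM at ZT0 in LD. In LL, levels were 2085 and 2122 FPKM at ZT20 and 2373 and 2484 FPKM at ZT0. On the log2 scale the change was 3.79 ± 0.18 (SE, limma adjusted p = 2.0e-06). PsaD (ostta15g02670), which carries the docking site of ferredoxin, had 83.8 to 225 FPKM over the LD libraries and 942 to 1247 FPKM over the LL libraries, a log2 change of 3.07 ± 0.17 (SE, limma adjusted p = 4.5e-06). PsaH, PsaL and PsaN changed by 2.74 (limma adjusted p = 6.3e-05), 2.06 (limma adjusted p = 0.00014) and 2.96 (limma adjusted p = 0.00020). PsaE (ostta02g03860) had 1095 and 1153 FPKM at ZT20 and 977 and 1355 FPKM at ZT0 in LL, against 144, 135 and 164 FPKM at ZT20 and 118, 94.4 and 0 FPKM at ZT0 in LD. Its call (limma adjusted p = 0.023) was lost on leaving out any of the 4 LL libraries in turn (adjusted p up to 0.076) and held without both shallow libraries (log2 change 3.30, limma adjusted p = 6.8e-06). The electron carriers and enzymes around the photosystems had smaller log2 changes. PetC, the Rieske protein of the cytochrome b6f complex, changed by 1.60 ± 0.27 (SE, limma adjusted p = 0.0030), and ferredoxin (Fd) by 1.56 ± 0.29 (SE, limma adjusted p = 0.0047). Ferredoxin-NADP reductase (FNR, ostta18g01250), which makes NADPH, had 301, 356 and 367 FPKM at ZT20 and 687, 842 and 889.7 FPKM at ZT0 in LD, and 1512 and 874 FPKM at ZT20 and 1445 and 1108 FPKM at ZT0 in LL, a log2 change of 1.21 ± 0.21 (SE, limma adjusted p = 0.0029). ATPD, the delta subunit of the ATP synthase, changed by 1.09 ± 0.18 (SE, limma adjusted p = 0.0027).

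**Figure D1:**
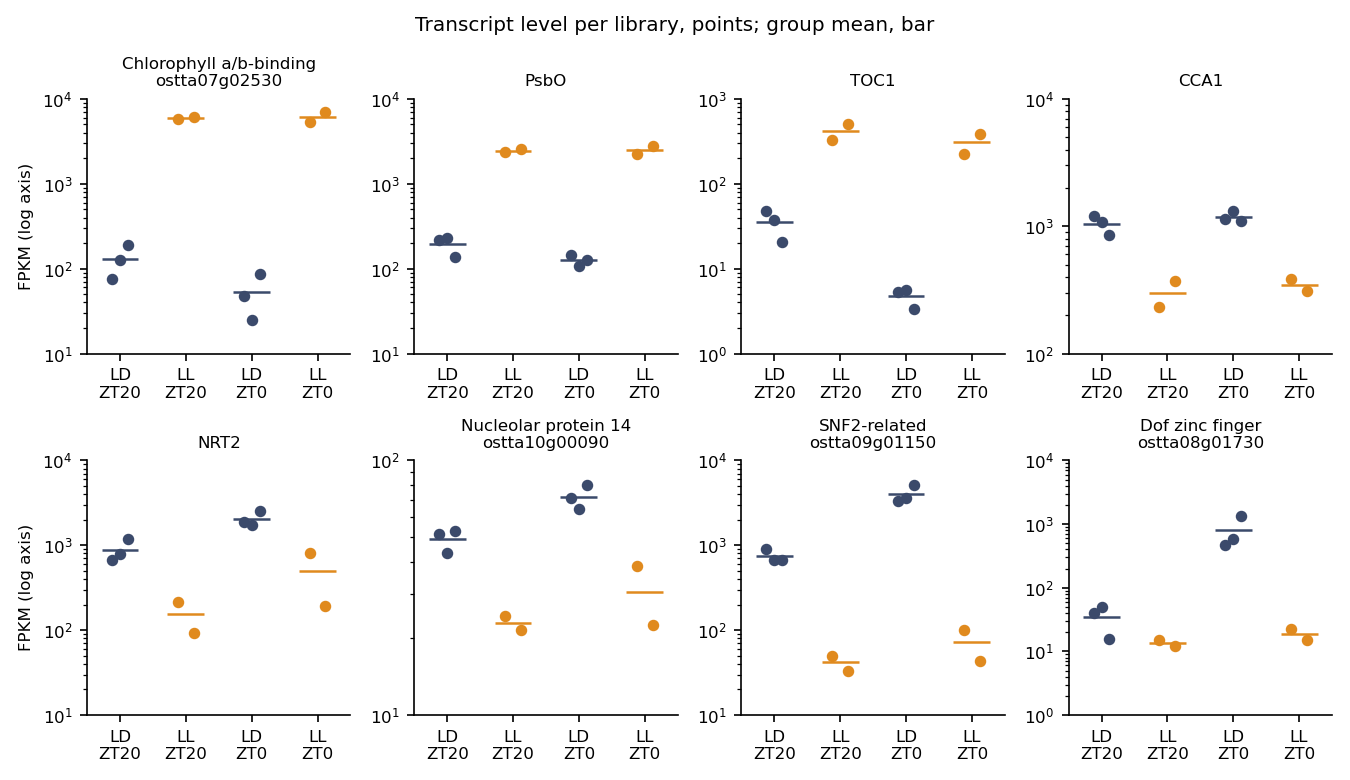
FPKM of 8 genes in each library (points, log axis) with group means (bars), for LD numbers 1 to 3 (dark) and LL numbers 4 and 5 (orange) at ZT20 and ZT0. The light-harvesting gene, PsbO and TOC1 lie above LD in all LL libraries, and CCA1, NRT2, nucleolar protein 14, the SNF2-related gene and the Dof gene lie below it.

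Part of the genes of pigment synthesis rose. Of 16 genes of tetrapyrrole synthesis, the pathway to chlorophyll and haem, 10 were called higher and none lower (median log2 change 0.73). Coproporphyrinogen III oxidase (ostta03g03160), an enzyme of the middle of the pathway, had 45.2, 42.2 and 17.4 FPKM at ZT20 and 104, 109 and 109.5 FPKM at ZT0 in LD. The levels under LL were 425 and 376 FPKM at ZT20 and 404 and 468 FPKM at ZT0. Between LL and LD it changed by 2.80 ± 0.25 (SE, limma adjusted p = 8.1e-05). Uroporphyrinogen decarboxylase, the step before it, was found as ostta05g01070 (2.77 ± 0.17 SE, limma adjusted p = 7.9e-06) and ostta01g03390 (1.93 ± 0.20 SE, limma adjusted p = 0.00019), and the first of these had 10.7 to 33.5 FPKM over the LD libraries and 125 to 141 FPKM over the LL libraries. Glutamate-1-semialdehyde aminomutase (ostta20g00080) also rose (1.97 ± 0.27 SE, limma adjusted p = 0.00093). GluTR (ostta11g00690), the glutamyl-tRNA reductase at the entry of the pathway, did not pass the test in the mean of both times (log2 change 0.67 ± 0.23 SE, limma adjusted p = 0.057) but did at ZT20 (1.42 ± 0.33 SE, limma adjusted p = 0.030). Among 11 genes of carotenoid synthesis 4 were called higher and 1 lower. Genes annotated as carotene isomerase made up 3 of those called higher.

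The highest of these, ostta06g02840, had 28.4 and 42.02 FPKM at ZT20 and 42.3 and 32.2 FPKM at ZT0 in LL, against 10.04, 9.49 and 4.04 FPKM at ZT20 and 4.22, 2.05 and 0 FPKM at ZT0 in LD, so that 1 LD library was listed at 0. Without the shallow libraries its log2 change was 2.57 (limma adjusted p = 0.00086). ostta14g01210 changed by 1.95 ± 0.23 (SE, limma adjusted p = 0.00044). VDE (ostta16g00660), the violaxanthin de-epoxidase that makes photoprotective zeaxanthin in strong light, had 99.2, 115 and 87.9 FPKM at ZT20 and 61.7, 71.3 and 84.6 FPKM at ZT0 in LD. The LL libraries had 184 and 172 FPKM at ZT20 and 156 and 162 FPKM at ZT0. This was a change of 0.98 ± 0.15 (SE, limma adjusted p = 0.0019), with no overlap at either time. ZEP, which runs the reverse reaction, had a log2 change of 0.49 ± 0.20 (SE, limma adjusted p = 0.11), and PSY, phytoene synthase at the entry of the pathway, -0.38 ± 0.15 (SE, limma adjusted p = 0.094). Neither passed the test. LCY (ostta14g00700), lycopene cyclase, was called lower (-0.90 ± 0.25 SE, limma adjusted p = 0.027), a call that was lost without LD number 1 or 2 at ZT20 or any of the 4 LL libraries (limma adjusted p up to 0.084).

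Carbon fixation genes were called more often at ZT20 than at ZT0, a difference that was tested for single genes only. Of 19 Calvin cycle genes 9 were called higher and none lower, with 7 called at ZT20 and 3 at ZT0, against 308 (4.14%) and 1009 (13.5%) higher among all genes. A gene annotated as fructose-1,6-bisphosphatase or sedoheptulose-bisphosphatase (ostta03g00350), steps in regenerating the acceptor of CO2, had 56.2, 69.5 and 54.6 FPKM at ZT20 and 220.3, 256 and 239 FPKM at ZT0 in LD. Libraries of LL held 596 and 385 FPKM at ZT20 and 557 and 499 FPKM at ZT0. Its rise was 2.98 ± 0.24 (SE, limma adjusted p = 0.00017) at ZT20 and 1.14 ± 0.24 (SE, limma adjusted p = 0.010) at ZT0, and these differed by 1.84 (limma adjusted p = 0.041). SBPase (ostta03g05500), which carries the second of these names in the study, had 55.3, 63.5 and 51.4 FPKM at ZT20 and 656, 676 and 691 FPKM at ZT0 in LD. Under LL it had 451 and 228 FPKM at ZT20 and 443 and 367 FPKM at ZT0. The LL libraries were above LD at ZT20 and below it at ZT0, with log2 changes of 2.48 ± 0.29 (SE, limma adjusted p = 0.00089) and -0.74 ± 0.29 (SE, limma adjusted p = 0.098), of which only the first passed the test, and a difference of 3.22 (limma adjusted p = 0.013). Neither difference was called without LL number 4 at ZT0 or at ZT20. Aldolase (FBA) changed by 1.09 ± 0.23 (SE, limma adjusted p = 0.0081), triosephosphate isomerase by 1.44 ± 0.18 (SE, limma adjusted p = 0.00056) and ribose 5-phosphate isomerase by 1.47 ± 0.19 (SE, limma adjusted p = 0.00074). RCA (ostta04g02510), the activase of Rubisco, was called (0.85 ± 0.26 SE, limma adjusted p = 0.039), but this call was lost on leaving out any 1 library other than LD number 3 at ZT0 and LL number 5 at ZT20 (limma adjusted p up to 0.15).

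In starch metabolism 4 of 9 genes tested were called higher and 1 lower, and after upper quartile scaling 2 and 1. GBSS (ostta06g02940), the granule-bound starch synthase, had 71.99, 88.4 and 13.4 FPKM at ZT20 and 49.6, 56.6 and 69.8 FPKM at ZT0 in LD. Values in LL were 232 and 447 FPKM at ZT20 and 111 and 212 FPKM at ZT0. Its log2 change was 2.11 ± 0.49 (SE, limma adjusted p = 0.012), and the call was lost without LL number 5 at ZT0 or at ZT20 (limma adjusted p up to 0.058). BAM (ostta03g03180), the beta-amylase that breaks starch down, had 405, 322 and 305 FPKM at ZT20 and 344, 376 and 337 FPKM at ZT0 in LD. In LL, levels were 127 and 166 FPKM at ZT20 and 153 and 170.3 FPKM at ZT0. It fell (log2 change -1.17 ± 0.16 SE, limma adjusted p = 0.00077), with all LL libraries below all LD libraries. Limma called the difference between the ZT20 and ZT0 effects for 0 of the 9 genes tested, with 3 at an unadjusted p under 0.05. APS, the small subunit of the pyrophosphorylase that makes ADP-glucose, rose by 3.50 ± 0.65 (SE, limma adjusted p = 0.012) at ZT20. At ZT0 the log2 change of APS was -1.06 ± 0.65 (SE, limma adjusted p = 0.28), which did not pass the test. The other 3 rises, of APL, the large subunit of the same enzyme, and the debranching enzymes ISA and PUL, were lost without most single libraries. Among these fits PUL was called only with LD number 3 at ZT0 left out (limma adjusted p up to 0.14), ISA only without that library or LD number 1 at ZT20 (up to 0.12), and APL without either of these or LL number 4 at ZT0 (up to 0.16).

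Both core clock genes changed, in opposite directions. TOC1 (ostta13g01820) had 47.4, 37.3 and 20.4 FPKM at ZT20 and 5.30, 5.56 and 3.38 FPKM at ZT0 in LD. The levels under LL were 327 and 506 FPKM at ZT20 and 225 and 389 FPKM at ZT0. The log2 change of this gene was 4.65 ± 0.28 (SE, limma adjusted p = 8.4e-06), the largest rise among the 9 clock and light signalling genes. Within LD its mean ranged from 4.75 FPKM at ZT0 to 922 FPKM at ZT12 (n = 3), and in LL from 171 FPKM at ZT8 to 658 FPKM at ZT16 (n = 2). CCA1 (ostta06g02340) had 1214, 1084 and 852 FPKM at ZT20 and 1145, 1312 and 1101 FPKM at ZT0 in LD. The LL libraries had 230.3 and 368 FPKM at ZT20 and 384 and 311 FPKM at ZT0. It fell (log2 change -1.80 ± 0.20 SE, limma adjusted p = 0.00025) by a like amount at both times, -1.83 (limma adjusted p = 0.0042) at ZT20 and -1.77 (limma adjusted p = 0.0027) at ZT0. At ZT4, ZT8 and ZT12, when both regimes were lit, CCA1 was instead higher in LL, by 2.50 ± 0.25 (SE, limma adjusted p = 3.4e-07), and its LD mean was 11.9 FPKM at ZT8 against 129 FPKM in LL.

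Of the light receptors and photolyases, CRY3 (ostta01g06470), a member of the cryptochrome and photolyase family, had 23.6, 19.4 and 25.1 FPKM at ZT20 and 13.2, 10.5 and 14.2 FPKM at ZT0 in LD. Libraries of LL held 36.2 and 53.2 FPKM at ZT20 and 34.9 and 41.4 FPKM at ZT0. It rose (log2 change 1.23 ± 0.20 SE, limma adjusted p = 0.0021). CRY1 and UVR2, the other named members of this family, had log2 changes of -0.34 ± 0.28 (SE, limma adjusted p = 0.40) and 0.39 ± 0.20 (SE, limma adjusted p = 0.17) and did not pass the test. HK (ostta09g02190), a histidine kinase, had 24.6, 29 and 19.6 FPKM at ZT20 and 135, 140.2 and 292 FPKM at ZT0 in LD. Under LL it had 36.1 and 30.2 FPKM at ZT20 and 41.7 and 32.4 FPKM at ZT0. Its LD level at ZT0 was several times that at ZT20, whereas LL gave similar levels at both, so that the change was 0.44 ± 0.35 (SE, limma adjusted p = 0.54) at ZT20 and -2.24 ± 0.35 (SE, limma adjusted p = 0.0027) at ZT0, a difference of 2.67 (limma adjusted p = 0.042) that was not called without LL number 4 at either time. The mean change (-0.90 ± 0.25 SE, limma adjusted p = 0.027) lost its call without LD number 1 or 2 at ZT20, LL number 4 at ZT20 or LL number 5 at either time (limma adjusted p up to 0.096). A different histidine kinase gene, ostta08g04240, was among the 4 largest rises of all. It had 270.4 and 353 FPKM at ZT20 and 259 and 340.5 FPKM at ZT0 in LL, against 5.08, 9.42 and 4.13 FPKM at ZT20 and 5.86, 2.12 and 0 FPKM at ZT0 in LD, with 1 LD library listed at 0, a log2 change of 6.12 ± 0.47 (SE, limma adjusted p = 3.7e-05) and, without the shallow libraries, 5.85 (limma adjusted p = 7.8e-06). Its LD means ran up to 1118 FPKM at ZT12.

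Nitrogen uptake and assimilation genes were lower in LL. Of 15 genes tested 6 were called lower and none higher, with a median log2 change of -0.95, and 9 were called lower without the shallow libraries and 11 after quantile normalization. NRT2 (ostta10g00950), a high-affinity nitrate transporter, had 662, 788 and 1176 FPKM at ZT20 and 1859, 1756 and 2520.3 FPKM at ZT0 in LD. Values in LL were 215 and 92.4 FPKM at ZT20 and 809.7 and 192 FPKM at ZT0. On the log2 scale the change was -2.47 ± 0.41 (SE, limma adjusted p = 0.0024), and the LL libraries lay below LD at both times but differed among themselves, with number 4 above number 5. The ammonium transporter ostta07g02180 had 754, 970.0 and 1427 FPKM at ZT20 and 1201, 1291 and 1626 FPKM at ZT0 in LD, and 175 and 218 FPKM at ZT20 and 527 and 207 FPKM at ZT0 in LL, a change of -2.20 ± 0.29 (SE, limma adjusted p = 0.00072). A second one, ostta20g00200, changed by -1.98 ± 0.30 (SE, limma adjusted p = 0.0017). NIR (ostta10g00930), nitrite reductase, had 226, 233 and 296 FPKM at ZT20 and 527, 514 and 787 FPKM at ZT0 in LD. In LL, levels were 141 and 86.9 FPKM at ZT20 and 328 and 130.2 FPKM at ZT0. It fell by a log2 change of -1.35 ± 0.28 (SE, limma adjusted p = 0.0076). NR, nitrate reductase, changed by -1.29 ± 0.34 (SE, limma adjusted p = 0.021), a call that was lost without LL number 5 at ZT0 or at ZT20 (limma adjusted p up to 0.092) and with 1 value per sample number as replicate block (limma adjusted p = 0.056). NRT3, an accessory protein of nitrate transport, had -1.04 ± 0.40 (SE, limma adjusted p = 0.084), GS (glutamine synthetase) -0.29 ± 0.23 (SE, limma adjusted p = 0.38) and GOGAT (glutamate synthase) 0.21 ± 0.29 (SE, limma adjusted p = 0.63). None of these passed the test. Fresh medium, the source of nitrogen, was added in the light only, which was around the clock in LL, and its part in these levels cannot be told apart from that of the light.

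**Figure D2:**
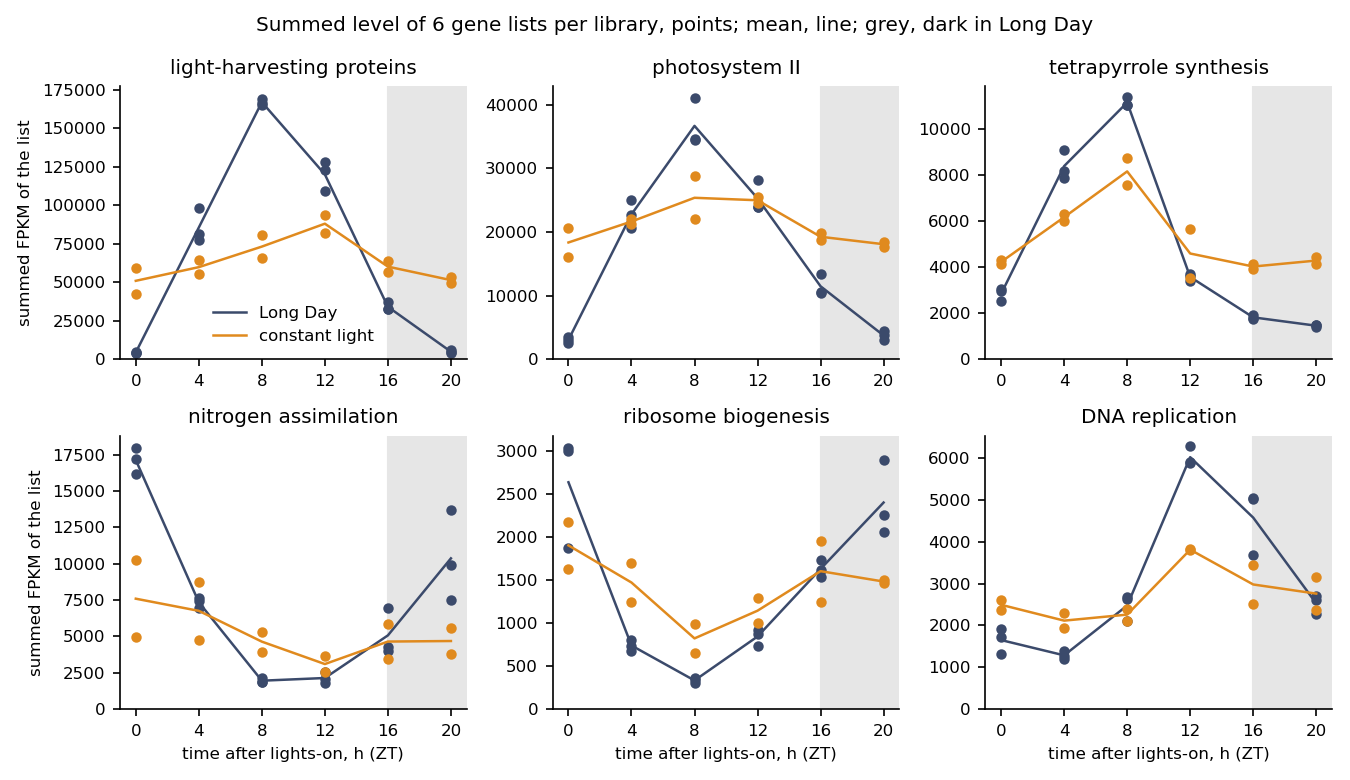
Summed FPKM of 6 gene lists at the 6 times of day in each library of LD (dark) and LL (orange), with lines through the means and the dark hours of LD in grey. At ZT20 and ZT0 the LL libraries lie above LD for light-harvesting and photosystem II genes (42382 to 59542 against 3973 to 5960 FPKM for the first), while at ZT8 the LD libraries are higher.

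Ribosome assembly genes were lower too. In the list of ribosome biogenesis 12 of 24 genes were called lower and none higher (median log2 change -0.74), and 18 were called lower without the shallow libraries or without LD number 3. Nucleolar protein 14 (ostta10g00090), part of the complex that processes the RNA of the small subunit, had 51.2, 43.2 and 52.6 FPKM at ZT20 and 71.3, 64.4 and 80.4 FPKM at ZT0 in LD. The levels under LL were 24.5 and 21.5 FPKM at ZT20 and 38.5 and 22.5 FPKM at ZT0. Between LL and LD it changed by -1.16 ± 0.19 (SE, limma adjusted p = 0.0024). Nucleolar complex protein 4 (ostta16g01170), an assembly factor of the same subunit, changed by -1.22 ± 0.23 (SE, limma adjusted p = 0.0052). BMS1 (ostta05g01080), a GTPase of this process, had 69.3, 51.9 and 57.5 FPKM at ZT20 and 89.1, 72.4 and 88.6 FPKM at ZT0 in LD, and 39.4 and 35.1 FPKM at ZT20 and 50.7 and 34.6 FPKM at ZT0 in LL, a change of -0.81 ± 0.18 (SE, limma adjusted p = 0.0092). MPP10, which binds the U3 RNA, changed by -0.87 ± 0.18 (SE, limma adjusted p = 0.0077). UTP14 was called (-0.84 ± 0.21 SE, limma adjusted p = 0.018) but not without LL number 5 at ZT0 or at ZT20 (limma adjusted p up to 0.069), and UTP12 did not pass the test (-0.48 ± 0.24 SE, limma adjusted p = 0.17).

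Few genes of the ribosomal proteins themselves were called. Of 106 tested 3 were higher and 3 lower, with a median log2 change of 0.23. Without the shallow libraries 3 were called higher and 8 lower, and without the LD samples numbered 3 these counts were 8 and 6. RPL7AE (ostta02g01210) had 802 to 1898 FPKM over the LD libraries and 716 to 1231 FPKM over the LL libraries and did not pass the test, with a log2 change of -0.45 ± 0.25 (SE, limma adjusted p = 0.21). Among 40 aminoacyl-tRNA synthetases, which load tRNAs with amino acids, 4 were called higher and 6 lower. These counts are near the 13.6% higher and 12.3% lower of all genes tested. Lysine-tRNA ligase (ostta11g00980) had 131, 117 and 137 FPKM at ZT20 and 157, 137 and 203 FPKM at ZT0 in LD. The LL libraries had 62.9 and 61.1 FPKM at ZT20 and 64.1 and 56.7 FPKM at ZT0. It fell (log2 change -1.23 ± 0.16 SE, limma adjusted p = 0.00066), without overlap at either time.

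DNA replication genes were higher in LL at ZT0. Of 40 genes in this list 19 were called higher and 1 lower in the mean of both times (median log2 change 0.81). Without the shallow libraries these counts were 22 and 3, and in the separate tests 19 were called higher at ZT0, against 1009 (13.5%) higher of all genes at ZT0. At ZT20 the median was 0.44 and limma called 0 members, with 12 at an unadjusted p under 0.05. The difference between the times was called for 0 of the 40, with 6 at an unadjusted p under 0.05. POLA (ostta08g00710), the catalytic subunit of the polymerase that primes replication, had 8.43, 6.98 and 11.3 FPKM at ZT20 and 2.53, 2.03 and 2.73 FPKM at ZT0 in LD. Libraries of LL held 18.2 and 26.1 FPKM at ZT20 and 18.2 and 18.6 FPKM at ZT0. Its log2 change was 1.86 ± 0.25 (SE, limma adjusted p = 0.00075), with all LL libraries above LD. MCM6 (ostta01g02580), a subunit of the replicative helicase, had 13.8, 13.8 and 10.9 FPKM at ZT20 and 2.66, 1.64 and 5.26 FPKM at ZT0 in LD, and 21.2 and 33.98 FPKM at ZT20 and 19.6 and 23.1 FPKM at ZT0 in LL, a change of 1.76 ± 0.29 (SE, limma adjusted p = 0.0025). MCM2 and MCM4 changed by 1.39 (limma adjusted p = 0.0044) and 1.35 (limma adjusted p = 0.0030), and ORC1, of the origin recognition complex, by 1.38 (limma adjusted p = 0.0030). By contrast, MCM3, MCM5 and MCM7 of the same helicase had log2 changes of -0.54 (limma adjusted p = 0.071), 0.55 (limma adjusted p = 0.27) and -0.52 (limma adjusted p = 0.31).

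PCNA (ostta06g02890), the clamp of the DNA polymerase, had 273 and 459.9 FPKM at ZT20 and 217 and 340.5 FPKM at ZT0 in LL, against 114, 156 and 147 FPKM at ZT20 and 31.5, 37.2 and 0 FPKM at ZT0 in LD. One LD library was listed at 0, and the call (limma adjusted p = 0.034) was lost without any 1 of the LD libraries of ZT20 or of the LL libraries (adjusted p up to 0.11), while without both shallow libraries the log2 change was 2.32 (limma adjusted p = 0.00014). PRIM2 (ostta11g00940), the large primase subunit, had 20.8 and 39.8 FPKM at ZT20 and 12.2 and 26.6 FPKM at ZT0 in LL, against 9.90, 11.1 and 5.84 FPKM at ZT20 and 1.88, 3.10 and 0 FPKM at ZT0 in LD, also with 1 library at 0. Without the shallow libraries its log2 change was 2.32 (limma adjusted p = 0.00094). The other gene annotated as this subunit, ostta08g01110, was not called, with -0.20 ± 0.18 (SE, limma adjusted p = 0.45).

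Among 26 regulators of cell division 5 were called higher and 3 lower, not far from the 13.6% and 12.3% of all genes tested. Dp (ostta10g01190), the partner of the transcription factor E2F at the start of the cycle, had 11.9, 14.7 and 20.9 FPKM at ZT20 and 1.53, 1.83 and 2.85 FPKM at ZT0 in LD. Under LL it had 28.8 and 42.2 FPKM at ZT20 and 16.1 and 21 FPKM at ZT0. The log2 change of this gene was 1.90 ± 0.26 (SE, limma adjusted p = 0.00092). CYCD (ostta18g01570), the cyclin of the same step, had 148, 139 and 84.4 FPKM at ZT20 and 27.2, 36.4 and 25.7 FPKM at ZT0 in LD, and 139.6 and 210.4 FPKM at ZT20 and 96.5 and 159 FPKM at ZT0 in LL, and was called at ZT0 (2.04 ± 0.34 SE, limma adjusted p = 0.0034) and not at ZT20 (0.51 ± 0.34 SE, limma adjusted p = 0.44). The difference between the times did not pass the test (-1.53, limma adjusted p = 0.17). APC3 (ostta06g00360), of the anaphase promoting complex, changed by 1.66 (limma adjusted p = 0.0024). Of the plastid division genes, FTSZ1 (ostta08g02230) changed by 1.17 (limma adjusted p = 0.0038), whereas FTSZ2 (ostta07g01610) had 0.05 ± 0.23 (SE, limma adjusted p = 0.90) and was not called. CDH1 (ostta13g02370), a gene with WD40 repeats that carries this symbol among the cell cycle genes, fell (log2 change -1.17 ± 0.18 SE, limma adjusted p = 0.0016), with 62.4 to 97.8 FPKM over the LD libraries and 26.7 to 36.1 FPKM over the LL libraries. The mitotic genes CDKB and CYCB had log2 changes of 0.11 ± 0.22 (SE, limma adjusted p = 0.73) and -0.60 ± 0.27 (SE, limma adjusted p = 0.13), and Rb, the repressor of E2F, 0.06 ± 0.28 (SE, limma adjusted p = 0.89). None of these passed the test. Of 13 core histones 1 was called higher and 1 lower, the rise of ostta02g00100 being called only without LL number 4 at ZT20 among the single libraries left out (limma adjusted p up to 0.16) and the fall of ostta08g00200 being lost without that library (0.056).

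Several lists outside these pathways held more rises than falls. The proteasome, which degrades marked proteins, had 10 of 31 genes called higher and none lower (median log2 change 0.55). At ZT0 9 were called higher, against 13.5% of all genes, and at ZT20 0, against 4.14%. At ZT20 limma gave 3 at an unadjusted p under 0.05. Limma called the difference between the times for 0 of the 31 genes, with 4 at an unadjusted p under 0.05. Subunit P45 (ostta03g02880) had 188, 168 and 129 FPKM at ZT20 and 57.9, 63.9 and 53.2 FPKM at ZT0 in LD. Values in LL were 174 and 217 FPKM at ZT20 and 225 and 178 FPKM at ZT0. Its change was 1.77 ± 0.24 (SE, limma adjusted p = 0.0012) at ZT0 and 0.29 ± 0.24 (SE, limma adjusted p = 0.56) at ZT20. In mitochondrial respiration 6 of 19 genes were called higher and none lower, and 11 were called higher without the LD samples numbered 3. A class I cytochrome c (ostta04g02580), a mobile electron carrier whose place in respiration or photosynthesis the annotation does not give, had 217, 241 and 389.7 FPKM at ZT20 and 103, 103 and 54.2 FPKM at ZT0 in LD. In LL, levels were 1099 and 992 FPKM at ZT20 and 778 and 1089 FPKM at ZT0. On the log2 scale the change was 2.69 ± 0.25 (SE, limma adjusted p = 9.7e-05).

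Of 18 antioxidant and redox enzymes 7 were called higher and 1 lower. A gene annotated as Cu/Zn superoxide dismutase, which removes superoxide, or its copper chaperone (ostta20g00440) had 180.3, 188 and 115 FPKM at ZT20 and 70.4, 74.4 and 38.2 FPKM at ZT0 in LD, and 745 and 1023 FPKM at ZT20 and 557 and 1018 FPKM at ZT0 in LL, a change of 3.06 ± 0.27 (SE, limma adjusted p = 7.0e-05). A haem peroxidase (ostta09g00500) had 0.269 to 5.16 FPKM over the LD libraries and 17.3 to 67.4 FPKM over the LL libraries, with a log2 change of 3.91 ± 0.41 (SE, limma adjusted p = 0.00018). Among 30 chaperones 10 were called higher and 2 lower (median log2 change 0.17), and without the shallow libraries 9 and 4 (median -0.02). Small heat shock proteins were found in both directions.

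The HSP20-like genes ostta18g01940 and ostta18g01945 rose by 1.48 (limma adjusted p = 0.00056) and 1.39 (limma adjusted p = 0.0035), whereas ostta16g00260 had 13.1, 13.3 and 10.7 FPKM at ZT20 and 16.2, 19.9 and 21.2 FPKM at ZT0 in LD, and 4.08 and 3.52 FPKM at ZT20 and 2.51 and 4.08 FPKM at ZT0 in LL and fell (log2 change -1.86 ± 0.24 SE, limma adjusted p = 0.00065). Of 7 fatty acid desaturases, which put double bonds into lipids, 4 were called higher. The summed level of the list ran the other way, with 3015.9 to 4499.7 FPKM in LD (median 3873.6) and 2750.9 to 3710.1 FPKM in LL (median 3093.5), and the ranges overlap. After upper quartile scaling, after quantile normalization and without LD samples numbered 3, 1 gene was also called lower. ADS1 (ostta01g00790) had 28.3, 27.03 and 15.5 FPKM at ZT20 and 38.1, 33.6 and 21.8 FPKM at ZT0 in LD, and 52.6 and 53.8 FPKM at ZT20 and 75.8 and 50.8 FPKM at ZT0 in LL, a change of 1.10 ± 0.25 (SE, limma adjusted p = 0.011). The desaturase ostta03g03040 changed at ZT20 (2.39 ± 0.36 SE, limma adjusted p = 0.0040) and had 0.03 ± 0.36 (SE, limma adjusted p = 0.96) at ZT0. Limma called the difference between the times for 0 of the 7 desaturases, with 1 at an unadjusted p under 0.05.

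**Figure D3:**
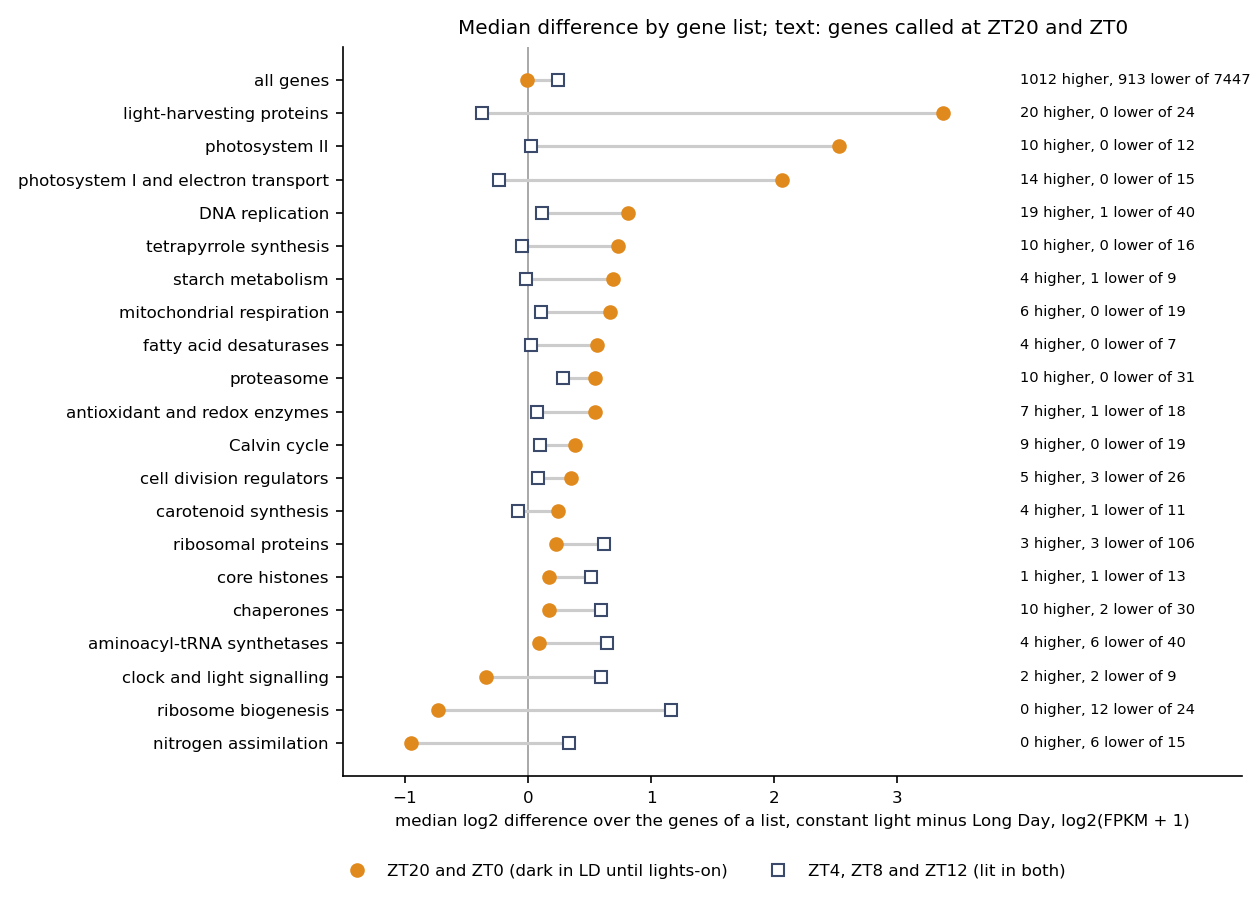
Median log2 difference between LL and LD over the genes of each list at ZT20 and ZT0 (filled) and at ZT4, ZT8 and ZT12 (open), with the number of genes called at ZT20 and ZT0. The medians of light-harvesting (3.37), photosystem II (2.52) and photosystem I (2.06) lie far from that of all genes (-0.01) at night, and between -0.37 and 0.02 by day.

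The largest falls included several genes of regulatory annotation. A SNF2-related gene (ostta09g01150), of a family of chromatin-remodelling ATPases, had 899, 678 and 676 FPKM at ZT20 and 3302, 3637 and 5083 FPKM at ZT0 in LD. The levels under LL were 50.2 and 33.4 FPKM at ZT20 and 101 and 43.8 FPKM at ZT0. Between LL and LD it changed by -5.01 ± 0.26 (SE, limma adjusted p = 3.0e-06), the largest fall of all genes tested. In LD its mean was 0.697 FPKM at ZT8, and in LL the means of the 6 times lay between 15.6 and 72.4 FPKM. The kinase gene ostta17g00770 had 259.6, 228 and 268 FPKM at ZT20 and 1045, 1052 and 1365 FPKM at ZT0 in LD, and 45.7 and 43.4 FPKM at ZT20 and 44.9 and 51.2 FPKM at ZT0 in LL, a change of -3.51 ± 0.15 (SE, limma adjusted p = 1.5e-06). The Dof zinc finger gene ostta08g01730, of a plant family of transcription factors, had 39.6, 49.9 and 15.9 FPKM at ZT20 and 465, 579 and 1349.5 FPKM at ZT0 in LD. The LL libraries had 14.9 and 12.2 FPKM at ZT20 and 22.6 and 15.1 FPKM at ZT0. It fell by a log2 change of -5.20 ± 0.53 (SE, limma adjusted p = 0.00025) at ZT0 and had -1.17 ± 0.53 (SE, limma adjusted p = 0.24) at ZT20, a difference of 4.03 (limma adjusted p = 0.042) that was likewise lost without LL number 4 at either time.

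The most abundant of these genes, ostta07g02500, of a plant protein family without known function, had 11799, 6692 and 7443 FPKM at ZT20 and 12024, 11863 and 14525 FPKM at ZT0 in LD. Libraries of LL held 903 and 1505 FPKM at ZT20 and 800.0 and 1126 FPKM at ZT0. It fell (log2 change -3.30 ± 0.28 SE, limma adjusted p = 5.7e-05). A HECT domain gene (ostta05g01690), of a class of ubiquitin ligases, a Kelch repeat gene (ostta06g01080) and a glycosyl hydrolase of family 13 (ostta16g00440) changed by -3.20 (limma adjusted p = 5.2e-05), -3.09 (limma adjusted p = 8.1e-05) and -2.86 (limma adjusted p = 0.00013). The hypothetical gene ostta13g01375 had 652 to 2229 FPKM over the LD libraries and 30.3 to 201 FPKM over the LL libraries and changed by -3.95 ± 0.55 (SE, limma adjusted p = 0.00092). A PsbP domain gene (ostta14g00760) ran against PsbP itself, with 1.58 and 1.46 FPKM at ZT20 and 0 and 1.71 FPKM at ZT0 in LL, against 23.2, 16.8 and 9.04 FPKM at ZT20 and 13.3, 8.95 and 24.4 FPKM at ZT0 in LD and a fitted change of -2.96 (limma adjusted p = 0.0011). The nucleotidase/apyrase gene ostta02g05440 was called as well, with 3.06 and 3.28 FPKM at ZT20 and 0 and 2.77 FPKM at ZT0 in LL, against 54.2, 43.8 and 6.34 FPKM at ZT20 and 9.41, 11.8 and 77.1 FPKM at ZT0 in LD, but not without LL number 4 at ZT0 or at ZT20 or LL number 5 at ZT20 (limma adjusted p up to 0.063). Of the 10 largest rises chosen by the naming rule, 1 was neither a light-harvesting nor a signalling gene. This gene, ostta08g02960, annotated with a CAAD domain, had 1138 and 1117 FPKM at ZT20 and 673 and 1317 FPKM at ZT0 in LL, against 93.4, 160.2 and 194 FPKM at ZT20 and 46.1, 33.6 and 0 FPKM at ZT0 in LD, and without the shallow libraries changed by 4.00 (limma adjusted p = 1.8e-05).

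The effect was called for more genes at ZT0 than at ZT20, by a margin that changed with the setting. At ZT20 547 genes (7.35%) were called, 308 higher (4.14%) and 239 lower (3.21%), and at ZT0 1487 (20.0%), 1009 higher (13.5%) and 478 lower (6.42%). Of the genes higher at ZT20, 59.09% were also higher at ZT0, and 18.04% of those higher at ZT0 were also higher at ZT20. For lower genes these shares were 61.51% and 30.75%, and 3 genes changed in opposite directions. These counts moved with single libraries. At ZT20 they fell to 287, 279 and 334 without LD number 1, 2 or 3 of that time, to 114 and 259 without LL number 4 or 5 of that time, and rose to 1165 without LD number 3 at ZT0. Without both shallow libraries 1324 genes were called at ZT20, of which 41.01% were higher, against 56.31% with them. At ZT0 814 and 538 genes were called without LL number 4 or 5 of that time. With array weights, 1896 genes were called at ZT20 and 2089 at ZT0, which is a small margin. Without LD samples numbered 3 these counts were 1071 and 2128. The share of higher genes at ZT0 depended on the scale of the libraries, being 67.85% on the deposited scale and 54.26% after quantile normalization, where the median change of all genes at ZT0 went from 0.11 to -0.10.

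A test of the difference between the effects at ZT20 and ZT0 called 71 genes (0.953%), with a more positive effect at ZT20 in 40 (0.537%) and at ZT0 in 31 (0.416%). A rhodanese domain gene (ostta05g04850) had 244, 359.9 and 359 FPKM at ZT20 and 3091, 4089.8 and 4181 FPKM at ZT0 in LD. Under LL it had 386 and 308 FPKM at ZT20 and 291 and 320.0 FPKM at ZT0. LD at ZT0 stood apart from the other 3 groups, and the change was -3.62 ± 0.27 (SE, limma adjusted p = 4.8e-05) at ZT0 and 0.13 ± 0.27 (SE, limma adjusted p = 0.86) at ZT20. The Myb gene ostta03g02980, of the same protein class as CCA1, showed the same kind of pattern with 62.4, 113 and 66.7 FPKM at ZT20 and 1359.7, 1818 and 1363 FPKM at ZT0 in LD. Values in LL were 129.7 and 145 FPKM at ZT20 and 147 and 133 FPKM at ZT0. Their differences were 3.74 (limma adjusted p = 0.0091) and 4.22 (limma adjusted p = 0.0091). In the other direction, a gene of the porin and Tom40 family (ostta09g03030), proteins of the outer mitochondrial membrane, had 283, 302 and 302 FPKM at ZT20 and 30.6, 44.6 and 22.8 FPKM at ZT0 in LD. In LL, levels were 417 and 499 FPKM at ZT20 and 379 and 575 FPKM at ZT0. Here LD at ZT0 was the low group, and the difference was -3.22 (limma adjusted p = 0.013). The kinase gene ostta09g04190 and the cyclophilin gene ostta03g04330, a protein folding enzyme, had differences of -3.54 (limma adjusted p = 0.013) and -2.91 (limma adjusted p = 0.013). A thioredoxin-like gene (ostta10g00200) reversed, with 2.70, 2.30 and 1.18 FPKM at ZT20 and 54.9, 58.1 and 42.95 FPKM at ZT0 in LD, and 19.3 and 13.7 FPKM at ZT20 and 7.46 and 17.3 FPKM at ZT0 in LL, and was called at both times, with 2.53 (limma adjusted p = 0.0060) at ZT20 and -2.08 (limma adjusted p = 0.0081) at ZT0. No gene passed this test without LL number 4 at ZT0 or without LL number 4 at ZT20, when limma gave 839 and 568 genes at an unadjusted p under 0.05. With other single libraries left out 6 to 259 genes passed, the counts outside 1.5 times being 6 and 20 without LD number 1 or 2 at ZT20, 13 and 259 without LD number 2 or 3 at ZT0, and 16 and 31 without LL number 5 at ZT0 or at ZT20.

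Levels at ZT20 and ZT0 lay closer together in LL than in LD. Between the means of ZT20 and ZT0, 1739 of the genes tested (23.35%) differed by at least 2-fold in LD and 193 (2.591%) in LL, and the median absolute log2 difference was 0.48 in LD and 0.19 in LL. These are differences between means of 3 and of 2 libraries, given without a test. The means of ZT0 include the shallow LD number 3 and LL number 4. In the first, 147 genes were listed at 0 that had at least 10 FPKM in numbers 1 and 2. In the second, 35 were listed at 0 that had at least 10 FPKM in number 5. A 0 of this kind lowers the mean of ZT0, and its share in these counts was not tested. Set against the mean profile of each LD time, LL libraries of ZT20 were most like LD at ZT16, with Pearson's r across genes of 0.908 to 0.942, and less like LD at ZT20 (0.89 to 0.906) or ZT0 (0.80 to 0.815). LL libraries of ZT0 had r of 0.873 to 0.934 with LD at ZT16, 0.872 to 0.906 with ZT20 and 0.807 to 0.829 with ZT0. An LD library of ZT0 was compared with the mean of the other LD libraries of its time, which gave 0.831 to 0.939, the lowest being the shallow number 3. Genes are not independent replicates, so these values are a description.

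**Figure D4:**
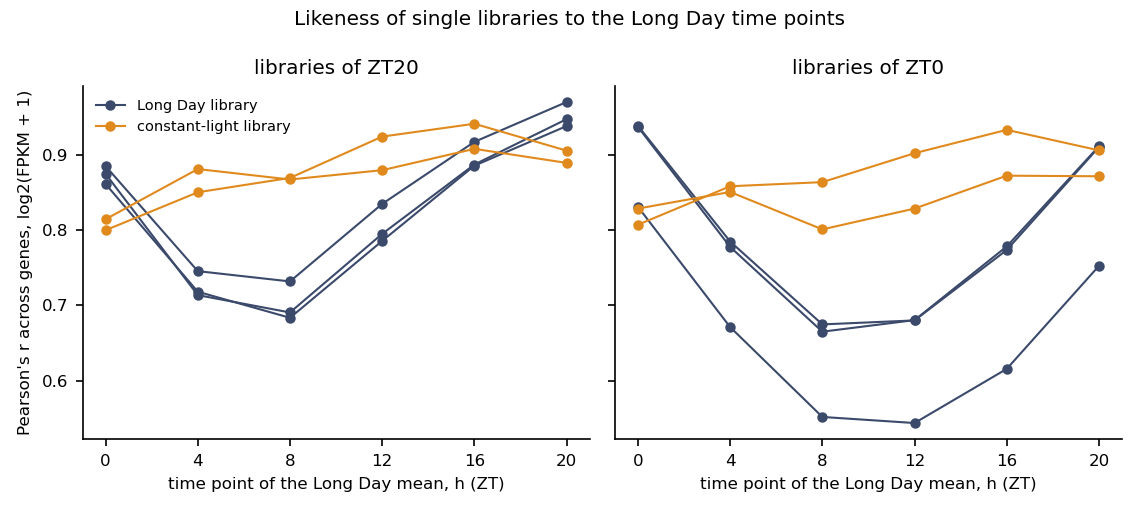
Pearson's r across genes of each LD (dark) and LL (orange) library of ZT20 and ZT0 with the LD mean of each time of day, an LD library being left out of the mean of its own time. The LL libraries of ZT20 peak at ZT16 (0.908 to 0.942), and LD libraries peak at their own time.

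Most of the changed levels lay inside the daily range of LD. Of the 1012 genes higher in LL, 905 (89.43%) had a mean over ZT20 and ZT0 in LL that did not pass their highest LD mean, and 107 went above it. Of the 913 lower genes 859 (94.09%) stayed inside and 54 went below the lowest LD mean. The higher genes peaked in LD at ZT12 (309), ZT4 (251), ZT16 (242) and ZT8 (198), with 12 at ZT20 and none at ZT0, and the lower genes had their LD minimum mainly at ZT8 (515) and ZT4 (230). Since the calls rest on LD at ZT20 and ZT0, few peaks or troughs could fall there. For the same reason a higher gene could hardly lie below its lowest LD mean, or a lower gene above its highest. The shares inside the range were thus partly set by the calls. Neither these shares nor the peaks and troughs were counted over all genes tested.

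By day, when both regimes were lit, the difference between LL and LD took another form. In the mean of ZT4, ZT8 and ZT12, 1537 genes (20.6%) were higher in LL and 174 (2.34%) lower. Of the 9 LD libraries behind this mean, the 3 numbered 3 were shallow, with 780000 to 2590000 estimated reads and 449 to 1007 genes listed at 0. Without all 5 shallow libraries of ZT0 to ZT12, 1718 genes (23.1%) were higher and 291 (3.91%) lower. The effect at ZT20 and ZT0 differed from that by day in 2514 of 7448 genes (33.8%), being more positive in 906 (12.2%) and more negative in 1608 (21.6%), and after quantile normalization in 1254 and 1277. Without the shallow libraries 2888 genes differed. Of the genes lower in LL at night, 371 of 913 were called higher by day and 22 lower. Of those higher at night 150 of 1012 were called higher by day and 58 lower. The light-harvesting list had none of its 24 genes called higher by day and 6 lower (median log2 change -0.37), and 21 had a more positive effect at night than by day. In ribosome biogenesis 18 of 24 genes were higher by day (median 1.16), and 19 had a more negative effect at night. Without the shallow libraries 5 light-harvesting genes were lower by day and 19 ribosome biogenesis genes higher, and the core histones went from 2 to 10 of 13 called higher.

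Among the most negative of these differences was the CCCH zinc finger gene ostta08g01880, which had 1351, 1289 and 1247 FPKM at ZT20 and 1422, 1645 and 1383 FPKM at ZT0 in LD. The levels under LL were 265 and 242 FPKM at ZT20 and 269 and 229 FPKM at ZT0. Its change was -2.46 ± 0.15 (SE, limma adjusted p = 9.8e-06) at night and 4.82 ± 0.21 (SE, limma adjusted p = 4.0e-13) by day, a difference of -7.28 (limma adjusted p = 1.7e-13). In LD this gene was listed at 0 in all libraries of ZT8 and reached a mean of 1483 FPKM at ZT0, while its LL means ran from 81.3 to 267 FPKM. The SNF2-related gene had -7.63 (limma adjusted p = 5.3e-09), an endonuclease III-like gene (ostta05g01380) -5.21 (limma adjusted p = 1.5e-10) and a winged helix gene (ostta06g00630) -4.99 (limma adjusted p = 4.5e-12). Each of these was lower in LL at night and higher by day. The most positive differences were in the light-harvesting genes ostta07g02530 (7.08, limma adjusted p = 1.9e-13) and ostta05g03830 (6.99, limma adjusted p = 1.7e-13) and in the histidine kinase gene ostta08g04240 (6.93, limma adjusted p = 1.7e-11).

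Cultures that came from Short Day (SD), with lights on for 8 h and off for 16 h, responded differently at the same times. There, 2718 of 7452 genes (36.5%) differed between LL after SD and SD at ZT20 and ZT0, 1731 higher (23.2%) and 987 lower (13.2%), from 10 libraries that share none with the LD comparison. With the sample number, taken to stand for the sampling day, as a replicate block of 1 value per number, 1725 genes were called. The other Short Day values given here came from fits without this block. The share of higher genes was 63.69% on the deposited scale and 46.99% after quantile normalization. Of the genes higher in LL after LD, 351 (34.68%) were also higher after SD, which was 20.28% of the SD list, and 74 were lower. Of the lower genes 267 (29.24%, and 27.05% of the SD list) were also lower, and 235 were higher. The 235 lie near the share of all genes called higher after SD (23.2%), and the 74 below the share called lower (13.2%). The effect itself differed between the entrainments in 1941 of 7460 genes (26.0%), more positive after LD in 849 (11.4%) and more negative in 1092 (14.6%). SD and LD cultures had other dilution rates, and at ZT20 SD cultures had been dark for 12 h against 4 h in LD, so that history and time in the dark cannot be told apart.

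The light-harvesting list rose after both entrainments, with 15 of 24 genes called after SD, but less, with a median log2 change of 1.09 against 3.37, and 17 genes had a more positive effect after LD. PsbO, for example, changed by 0.76 (limma adjusted p = 0.0017) after SD, where its mean in SD was 1716 FPKM at ZT20, and the difference was 3.23 ± 0.23 (SE, limma adjusted p = 1.6e-07). CCA1 went opposite ways, with -1.80 (limma adjusted p = 0.00025) after LD and 3.08 (limma adjusted p = 2.9e-07) after SD. The LL levels of CCA1 were similar after both (299 and 296 FPKM at ZT20, n = 2), while the diel levels were not (1050.1 FPKM in LD and 48.8 FPKM in SD, n = 3). TOC1 rose after both, by 4.65 (limma adjusted p = 8.4e-06) and 3.04 (limma adjusted p = 0.00023).

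Ribosome biogenesis had 12 genes lower after LD and 19 of 24 higher after SD (medians -0.74 and 1.24), with a difference called in 19. Ribosomal proteins had 80 of 106 called higher after SD against 3 after LD. CDKB (ostta15g00670), the kinase of mitosis, changed by 5.42 (limma adjusted p = 2.9e-07) after SD, from 5.99 FPKM in SD at ZT20 to 187 FPKM in LL after SD, and was not called after LD, with 0.11 (limma adjusted p = 0.73). NRT2 likewise changed by 1.34 (limma adjusted p = 0.020) after SD and -2.47 (limma adjusted p = 0.0024) after LD, with a difference of -3.81 ± 0.61 (SE, limma adjusted p = 0.00021). In tetrapyrrole synthesis 1 of 16 genes was called higher and 5 lower after SD, and in 11 the effect was more positive after LD.

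**Figure D5:**
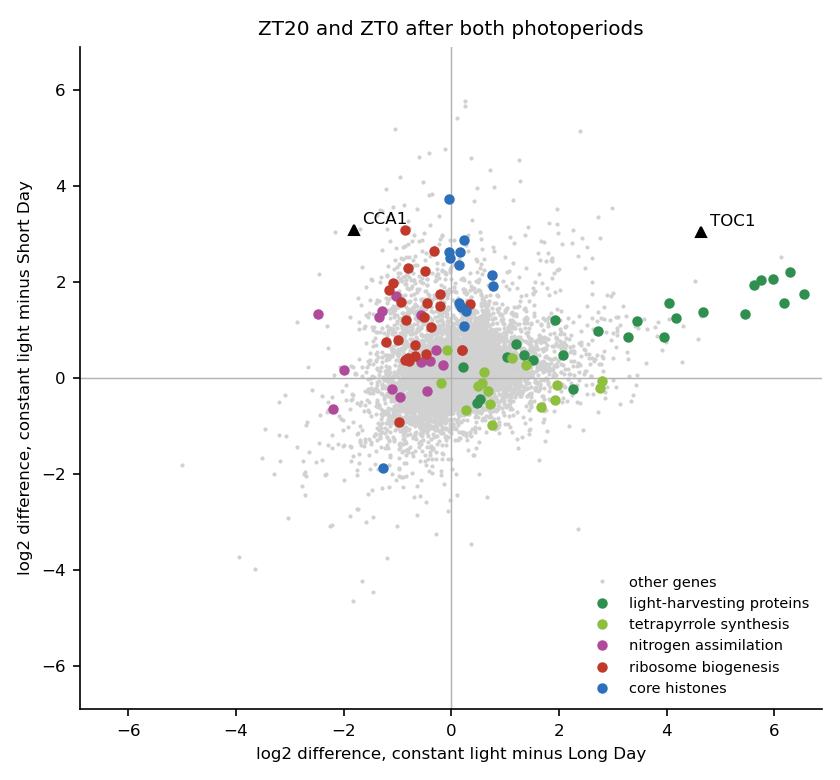
Log2 difference at ZT20 and ZT0 between LL and the diel cycle, after LD (x axis) and after SD (y axis), for all genes tested in both (grey) and 5 gene lists (colours), with CCA1 and TOC1 as triangles. Light-harvesting genes lie to the right and mostly above 0, with medians of 3.37 and 1.09, ribosome biogenesis genes mostly to the upper left, with medians of -0.74 and 1.24, and CCA1 at -1.80 and 3.08.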

How the data were processed

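Libraries of polyadenylated RNA were sequenced as single reads of 75 nt. The submitters' notes name FastQC, HISAT2 and StringTie, and the methods add Ballgown and the v3.0 genome. Tool versions are not given in the sources used here. The deposited values are FPKM per gene, made by the authors for 7668 genes in a table of 60 libraries. The other 24 libraries of the series, from constant darkness, were not used here. Gene IDs were matched by locus tag to RefSeq annotation of assembly version 140606 for 7661 of 7668 genes, as a check of the IDs, and gene functions and symbols were taken from the study's gene tables. Columns of the authors' own tests were not used. No 2 libraries held identical values.

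Levels were tested as log2(FPKM + 1) with limma 3.58.1 (R 4.3.3, moderated with a mean-variance trend) on the means of each regime and time point, for genes with a mean of at least 1 FPKM over the libraries of a fit. P-values were two-sided and adjusted over all genes tested (Benjamini-Hochberg), with a threshold of 0.05. Log2 changes are LL minus LD on this scale, which understates the changes of low genes. The difference between night and day used LD and LL at ZT20 and ZT0 against ZT4, ZT8 and ZT12, and the comparison with Short Day used the corresponding libraries. Alternatives were pseudocounts of 0.1 and 5, no filter and a filter of 5 FPKM, upper quartile and quantile scaling, array weights, fits with the sample number as replicate block, other designs and fits with libraries left out.

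Depth was estimated from the step between the 250 lowest values of a library, of which 70.4% to 90.4% in the 10 libraries compared, and as few as 51.6% in another library, were whole multiples of 1 read within a tolerance of 0.1. Libraries under 3000000 estimated reads were called shallow. Leaving them out was chosen after seeing the data. In Short Day, deviations of samples with the same number from the group means correlated between ZT20 and ZT0 (r = 0.30, 0.44 and 0.52). Number 2 at ZT20 with number 1 at ZT0 gave 0.40, and number 1 at ZT20 with number 2 at ZT0 gave 0.13. Number 3 with the others gave -0.53 to -0.29. Number 3 thus stood apart, and these values do not show that each number is a pair. The main Short Day counts, log2 changes and p-values came from fits without pairs. A fit with 1 value per number, taken to stand for the sampling day, was given beside them.

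Genes named are the 10 largest rises and falls among called genes with a mean of at least 10 FPKM over the 10 libraries compared. These also needed an annotated product and no overlap of LL and LD at either time. Also named are up to 4 genes of each of 20 lists (487 genes) and the genes with a symbol in them. The last are 5 in each direction of the differences between ZT20 and ZT0 and between night and day. The lists and the comparison itself were chosen with earlier results of these data known, so no count over a list is independent evidence. The fit was tested on simulated data. Figures were drawn with matplotlib 3.10.9, and tables made with Python 3.11.15, numpy 2.4.6 and pandas 2.3.3.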

Additional observations from a re-analysis of the deposited data

Results flagged for a closer look

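A sample far from the others of its group was found in 4 measures. Each group pooled the ZT20 and ZT0 libraries of a regime, and many measures were checked, so no chance rate is given for these. LD number 3 at ZT0 had the highest number of genes listed at 0 of the 6 LD libraries (699) and the lowest estimated number of reads (510000). Both values belong to the same library and are not independent findings. Of the 4 LL libraries, number 4 at ZT0 had the highest number of genes at 0 (353). The summed level of the starch metabolism list was lowest in LD number 3 at ZT20, at 626.3 FPKM. This library was not shallow, with 6410000 estimated reads.

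Effects that differed between conditions, by a limma test of the difference itself, were found for 71 genes between ZT20 and ZT0, for 2514 genes between night and day, and for 1941 genes between the cultures that came from Long Day and from Short Day.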

How the results depend on the processing

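With array weights, which in 2 of the fits stopped before reaching their tolerance, the calls numbered 3069 for the mean of ZT20 and ZT0, 1896 for ZT20, 550 for the difference between ZT20 and ZT0, 4496 after Short Day and 3340 for the difference between the entrainments. Leaving out all LD samples numbered 3 gave 1071 calls at ZT20 and 357 for the difference between ZT20 and ZT0, and leaving out the shallow LD number 3 and LL number 4 at ZT0 gave 1324 and 195. Which direction held most calls changed with the setting. For the mean of both times higher genes were 52.57% of the calls, and 48.24% after upper quartile scaling, 48.1% after quantile normalization, 47.38% with array weights, 48.95% without LD samples numbered 3 and 49.11% without the shallow libraries. At ZT20 they were 56.31%, 37.34% with array weights and 41.01% without the shallow libraries. For the difference between ZT20 and ZT0 they were 56.34%, 28% with array weights, 33.89% without LD samples numbered 3 and 31.79% without the shallow libraries. The difference between ZT20 and ZT0 gave 119 calls after quantile normalization. Besides these and the fits with a replicate block given below, the other pseudocounts, filters, scalings and designs left these counts within 1.5 times.

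With 1 library left out at a time, calls ranged from 1096 to 2668 for the mean of both times, 114 to 1165 at ZT20, 538 to 1848 at ZT0, 0 to 259 for the difference between the times, 2027 to 2645 for night against day, 1900 to 3696 after Short Day and 1510 to 2411 for the difference between the entrainments. Where LL kept 1 library at a time point, that library was assumed to vary like the other groups. Of 210 genes named by the rule 141 were called, and 104 of these kept their call in each such fit, 37 losing it in at least 1.

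LD and LL share no sample numbers. As a check of pairing, deviations of samples with the same number correlated by -0.20, -0.01 and -0.21 between ZT20 and ZT0 in LD and by 0.19 in LL, so numbers were not taken as pairs there. With the number as a replicate block of 1 value per number, 1762 genes were called for the mean of both times, 2473 for night against day, 1725 after Short Day and 1501 for the difference between the entrainments, and with a random effect of the number 39 for the difference between ZT20 and ZT0. A block of 1 value per number was not possible for single time points and their difference. Under it 12 of the 141 named genes called lost their call.

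Between LD number 3 at ZT0, with 510000 estimated reads, and the deeper libraries, depth limits low genes most. A gene listed at 0 there can be present. The sources do not say that samples of a group came from separate cultures, so the errors cover the spread between these samples alone.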
